A study of Homo sapiens with 6 samples.

Results

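The 9 genes described here are inputs and outputs of mTOR complex 1 (mTORC1): the kinase *MTOR*, its scaffold *RPTOR*, the stress-induced repressors *DDIT4*, *DDIT4L* and *SESN2*, the cap-binding factor *EIF4E* and the eIF4E-binding proteins (4E-BPs) *EIF4EBP1*, *EIF4EBP2* and *EIF4EBP3*. They are 9 of the 62700 genes listed in each library, matched by gene symbol, and 7 of them reached the mean of 1 TPM (a relative level scaled for transcript length and for the total of its library) required for testing, as did 14020 genes in all. The group was chosen by the values in these same libraries, because *DDIT4* was higher and *EIF4EBP2* was lower after knockdown, so the changes of all 9 genes between the groups are given as a description with no test. RNA-seq covered 6 libraries of SK-Hep1, a human cell line established from a liver adenocarcinoma that the study treats as endothelial-derived. The 3 control libraries are titled as carrying a control shRNA, although their genotype label reads wild type, and the 3 knockdown libraries are titled as carrying an shRNA against the long non-coding RNA *RAB30-DT*. According to the methods of the study, such lines were made by lentiviral transduction and puromycin selection. The library names do not say which *RAB30-DT* shRNA was sequenced or whether the replicates were separate cultures, so the spread between libraries may be technical.

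mTORC1 is a protein kinase complex on the lysosome that couples growth factors, energy and amino acids to protein synthesis. When it is active, it phosphorylates the 4E-BPs, which then release eIF4E, so that the cap-bound eIF4F complex can form and translation can start. When mTORC1 is inhibited, the 4E-BPs hold eIF4E and cap-dependent translation falls. DDIT4 (also called REDD1) restrains the complex through TSC1-TSC2, and SESN2 through the amino acid branch. These are controls on protein activity, whereas the values here are RNA levels.

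Library values below are given in the order of replicates 1, 2 and 3 of a group. The targeted gene was lower on average but did not separate the groups. *RAB30-DT* was at 18.16, 11.51 and 13.91 TPM in the control libraries, against 11.94, 10.85 and 6.5 TPM after knockdown, so that the groups overlapped (log2 fold change −0.55, SE 0.27, adjusted p = 0.355 from limma). The study separately reported the knockdown of *RAB30-DT* in SK-Hep1 cells by qPCR. The libraries also differed in composition. The deviation of a gene from its mean followed its GC content with a Spearman's rho of −0.607 in control replicate 1 and −0.523 in knockdown replicate 1, against 0.0220 to 0.489 in the other libraries, so both libraries numbered 1 stood apart. The defining endothelial markers *PECAM1* and *KDR* were at or below 0.01 TPM, and the 5 endothelial markers together summed to 0.13 to 0.22 TPM in the control group and 0.36 to 0.38 TPM in the knockdown group, of which *VWF* made up 0.07 to 0.13 TPM and 0.3 to 0.36 TPM. The hepatocyte markers *ALB*, *TTR* and *HNF4A* were listed at 0 in every library. *SERPINA1*, the only hepatocyte marker above 1 TPM, spanned 18.1 to 24.0 TPM across the control group, and 28.3 to 37.2 TPM across the knockdown group. *VIM* was above 3793 TPM throughout, and the sum of the 5 mesenchymal markers spanned 3898 to 4147 TPM and 4438 to 4880 TPM in the same groups. This sum follows *VIM*, whereas *THY1* was lower after knockdown with no overlap (102 to 148 TPM against 76.0 to 98.7 TPM). The other mesenchymal markers, *COL1A1*, *COL1A2* and *S100A4*, were at or below 2.41 TPM in every library. The part of these markers in the results was not tested. In bulk RNA, a changed number of cells of one kind cannot be told apart from a changed RNA level per cell.

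The sequences of the genes that differed most are shown first, because they locate the values that follow. *EIF4EBP2* (ENSG00000148730.7) lies on the plus strand of hg38 at chr10:70404145-70428618, and its annotated 3′UTR (transcript ENST00000373218.5) is 6871 bases long. That 3′UTR holds 2 copies of the 7-mer GAGTGAA, which start at its bases 2001 and 2348. The 7-mer had been picked from a scan of 3′UTRs against the changes in these same libraries, so its presence in genes that were lower is not independent evidence. Each copy is shown in a window of 30 bases of the plus strand, with the 7-mer in capitals.
EIF4EBP2 3′UTR, chr10:70423736-70423765: gtgaatagttcaGAGTGAAaaccttttgtg
EIF4EBP2 3′UTR, chr10:70424083-70424112: cagtgagcagaaGAGTGAActcttcttgat
Of 11537 tested genes with an annotated 3′UTR, 12.5% held at least 1 copy and 2.03% held 2 or more. Long 3′UTRs held it more often. Of the 524 genes whose 3′UTR was within 1.25 times the length of that of *EIF4EBP2*, 39.3% held at least 1 copy and 10.1% held 2 or more. Among the other 8 genes, *DDIT4L* held 1 copy and 7 held none.

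*DDIT4* (ENSG00000168209.6) is a short gene on the plus strand at chr10:72273919-72276036, and *SESN2* (ENSG00000130766.5) lies on the plus strand at chr1:28259518-28282491. Their promoters are shown because both genes were higher in every knockdown library and both are known to be induced by stress. Each line gives the 250 bases before the RefSeq start on GRCh38.p14, with the hypoxia response element cores ACGTG and GCGTG in capitals.
DDIT4 promoter, chr10:72273674-72273923, plus strand: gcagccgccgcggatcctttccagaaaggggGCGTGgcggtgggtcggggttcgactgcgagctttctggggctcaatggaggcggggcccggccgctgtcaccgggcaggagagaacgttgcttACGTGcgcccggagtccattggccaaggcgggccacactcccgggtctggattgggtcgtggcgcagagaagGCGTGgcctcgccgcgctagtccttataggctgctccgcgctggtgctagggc
SESN2 promoter, chr1:28259268-28259517, plus strand: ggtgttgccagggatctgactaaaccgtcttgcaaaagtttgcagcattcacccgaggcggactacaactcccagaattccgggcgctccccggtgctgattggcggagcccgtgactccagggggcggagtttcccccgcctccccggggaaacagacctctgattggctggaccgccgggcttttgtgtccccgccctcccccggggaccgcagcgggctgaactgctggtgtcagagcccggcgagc
The *DDIT4* promoter held 1 ACGTG, which starts 125 bases before the RefSeq start, and 2 GCGTG, which start 219 and 53 bases before it. This RefSeq start lies a few bases after the gene start given above. The *SESN2* window held neither core on either strand. With both strands searched and overlapping matches counted, 43.2% of 35116 RefSeq promoters of this length held at least 1 of these cores and 7.76% held 3 or more. The cyclic AMP response element TGACGTCA, found in 1.65% of promoters, and the C/EBP-ATF element TGATGNAA, found in 3.14%, were in neither window. A match describes the letters only.

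*DDIT4* was higher in every knockdown library than in any control library. It was at 76.22, 110.86 and 55.94 TPM in the control libraries, against 189.12, 250.27 and 209.23 TPM after knockdown. The lowest knockdown library was well above the highest control library. Control libraries averaged 81.0 ± 27.8 TPM and knockdown libraries 216 ± 31.2 TPM (SD, n = 3 each), with a log2 fold change of 1.45 (SE 0.25) and a fold of 2.73 on the log2(TPM + 1) scale, on which all log2 fold changes here are given. Of all tested genes, 1.62% had a larger change in either direction. Control cells varied in this gene, and the value was 1.21 without control replicate 3 and 1.70 without control replicate 2. With each library's trend with GC content removed, it was 1.52. Its paralog *DDIT4L* (ENSG00000145358.6, minus strand, chr4:100185870-100190782), which also restrains mTORC1, was listed at 0 in all 6 libraries.

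*SESN2*, the leucine-binding sestrin that acts on GATOR2, followed *DDIT4* in direction at a lower level. It was at 8.31, 11.53 and 11.84 TPM in the control libraries, against 19.42, 23.3 and 23.75 TPM after knockdown. The groups were again apart, and the spread within each was small. Control libraries averaged 10.6 ± 1.95 TPM and knockdown libraries 22.2 ± 2.38 TPM (SD, n = 3 each), with a log2 fold change of 1.01 (SE 0.20). It was between 0.86 and 1.10 with each library left out in turn. Of the other sestrins, which were looked up after their values were seen, *SESN1* was at 3.14 ± 0.846 TPM (SD, n = 3) in control and 7.26 ± 0.773 TPM (SD, n = 3) in knockdown cells without passing the threshold (log2 fold change 1.01, adjusted p = 0.0936 from limma), and *SESN3* was at or below 0.06 TPM in every library.

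*EIF4EBP2* was lower in every knockdown library than in any control library. It was at 28.2, 26.69 and 18.26 TPM in the control libraries, against 7.55, 8.01 and 5.84 TPM after knockdown. The lowest control library was well above the highest knockdown library, and knockdown libraries varied little. Control libraries averaged 24.4 ± 5.36 TPM and knockdown libraries 7.13 ± 1.14 TPM (SD, n = 3 each), with a log2 fold change of −1.63 (SE 0.23) and 3.09-fold higher in control cells. Of all tested genes, 1.09% had a larger change in either direction. It was between −1.82 and −1.51 with each library left out in turn and −1.63 with the GC trend removed.

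The 4E-BP with the most RNA in these cells was another one. *EIF4EBP1* (ENSG00000187840.5), the classical mTORC1 substrate, was at 131.94, 230.92 and 233.62 TPM in the control libraries, against 117.15, 161.98 and 191.84 TPM after knockdown. The groups overlapped, and replicate 1 was the lowest library of each. Control libraries averaged 199 ± 57.9 TPM and knockdown libraries 157 ± 37.6 TPM (SD, n = 3 each), with a log2 fold change of −0.32 (SE 0.27). It was −0.21 with the GC trend removed, and its exons are rich in GC (62.9%). The difference rested on single libraries, since the log2 fold change was −0.13 without knockdown replicate 1 and −0.59 without control replicate 1.

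*EIF4EBP3* (ENSG00000243056.2, plus strand, chr5:140547662-140549576) was at or below 1.44 TPM in every library. It was at 0.28, 0.77 and 0 TPM in the control libraries, against 0, 1.05 and 1.44 TPM after knockdown, below the mean required for testing. Its values are uncertain, because the gene shares exons with the readthrough gene *ANKHD1-EIF4EBP3* on the same strand, at a mean of 15.4 TPM over the 6 libraries, and overlaps *SRA1* on the other strand, at 41.4 TPM. The library protocol as stated does not mark strand.

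*EIF4E* (ENSG00000151247.13, minus strand, chr4:98879276-98929133), the target of the 4E-BPs, was at 90.02, 69.58 and 62.74 TPM in the control libraries, against 67.33, 58.6 and 47.75 TPM after knockdown. The groups overlapped, because knockdown replicate 1 was above control replicate 3. Control libraries averaged 74.1 ± 14.2 TPM and knockdown libraries 57.9 ± 9.81 TPM (SD, n = 3 each), with a log2 fold change of −0.35 (SE 0.20). Its exons are poor in GC (34.5%), replicate 1 was the highest library of each group, and the log2 fold change was −0.43 with the GC trend removed.

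The kinase and its scaffold had overlapping levels. *MTOR* (ENSG00000198793.14, minus strand, chr1:11106535-11262556) was at 44.14, 38.62 and 38.13 TPM in the control libraries, against 40.14, 38.64 and 34.45 TPM after knockdown (log2 fold change −0.09, SE 0.16, and 0.01 after quantile normalization). *RPTOR* (ENSG00000141564.16, plus strand, chr17:80544819-80966371), which presents the 4E-BPs to the kinase, was at 13.67, 16.53 and 13.6 TPM in the control libraries, against 9.55, 13.64 and 12.84 TPM after knockdown (log2 fold change −0.27, SE 0.20). The differences of both genes were smaller than those of *DDIT4*, *SESN2* and *EIF4EBP2*. Of the 7 tested members, *DDIT4* and *SESN2* were higher and *EIF4EBP2* was lower with no overlap between groups, as were 9.89% and 13.4% of all tested genes in these directions (23.3% in either). The fit across all genes, at an adjusted p under 0.05, called *DDIT4* higher and *EIF4EBP2* lower, as it called 0.371% and 0.67% of all tested genes (1.04% in either). These are the 2 genes whose changes chose the group, so nothing is read from that count. *DDIT4* was called in 11 and *EIF4EBP2* in 13 of 18 alternatives, and neither without control replicate 2, without any one of the knockdown replicates, or with no filter on low values. *DDIT4* was also not called without control replicate 3 or without the eBayes trend.

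**Figure D1:**
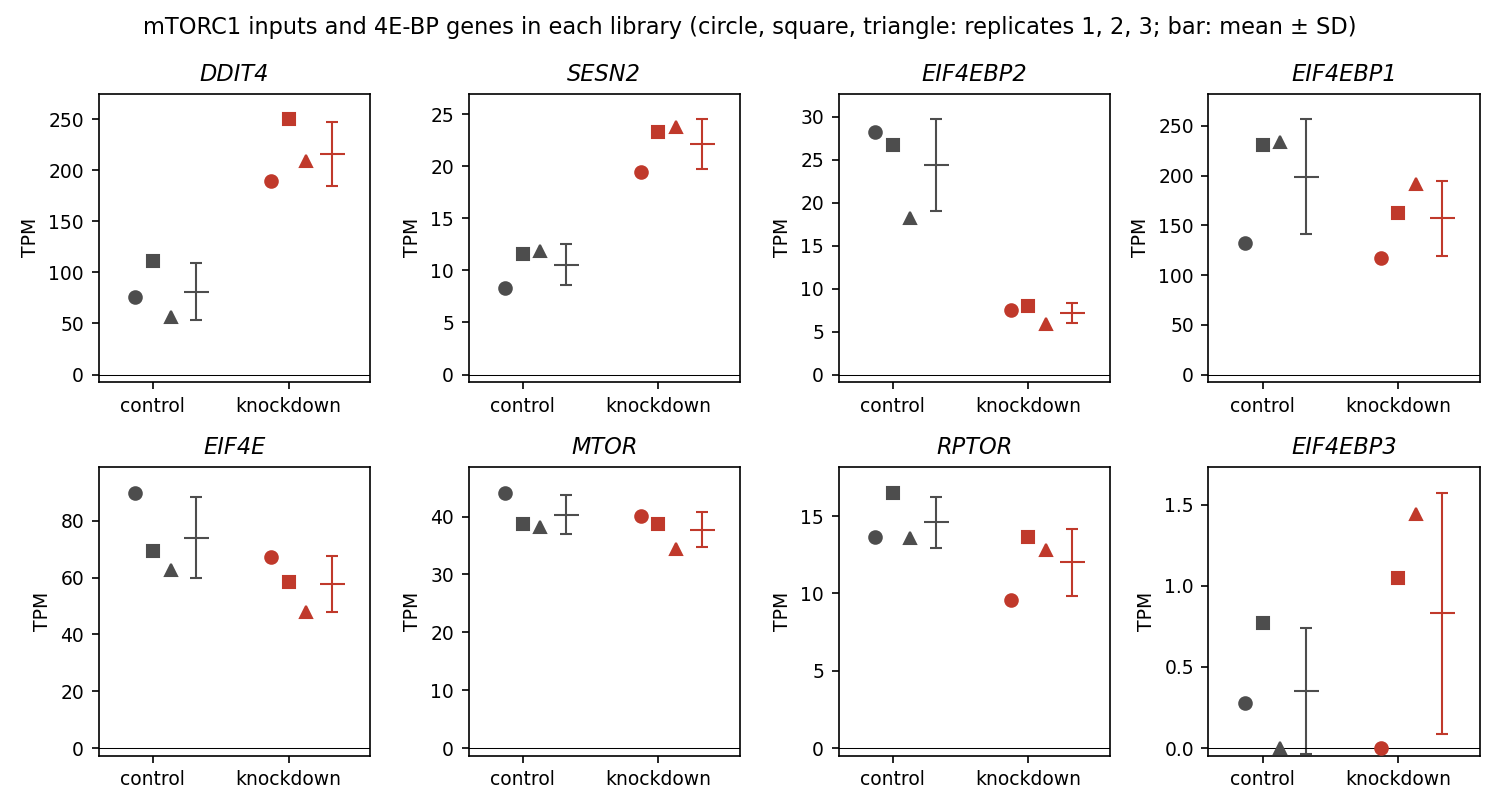
TPM of 8 of the 9 genes in each library, with control libraries in grey, knockdown libraries in red, circle, square and triangle for replicates 1, 2 and 3, and a bar for the mean ± SD of each group (*DDIT4L* was listed at 0 throughout). The knockdown points of *DDIT4* and *SESN2* lie above all control points, those of *EIF4EBP2* lie below them, and the other genes overlap.

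The order of the levels differed between the groups. In control cells the order of mean TPM was *EIF4EBP1*, *DDIT4*, *EIF4E*, *MTOR*, *EIF4EBP2*, *RPTOR* and *SESN2*, followed by *EIF4EBP3* and *DDIT4L*. The libraries of *DDIT4* and *EIF4E* overlapped there, as did those of *EIF4EBP3* and *DDIT4L*, whereas the other neighbours did not. In knockdown cells it was *DDIT4*, *EIF4EBP1*, *EIF4E*, *MTOR*, *SESN2*, *RPTOR* and *EIF4EBP2*, and the neighbours that overlapped were *DDIT4* with *EIF4EBP1* and *EIF4EBP3* with *DDIT4L*. The ratio of *DDIT4* to *MTOR* TPM was 1.73, 2.87 and 1.47 in the control libraries, against 4.71, 6.48 and 6.07 after knockdown.

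The makeup of the 4E-BP pool in RNA was then compared, since TPM are scaled for transcript length. *EIF4EBP2* made up 17.6%, 10.3% and 7.25% of the summed 4E-BP TPM in the control libraries, against 6.05%, 4.68% and 2.93% after knockdown. The groups did not overlap, although the share also differed among libraries of a group. In both groups it fell from replicate 1 to replicate 3, while the rho with GC content rose. Relative to *EIF4E*, *EIF4EBP2* was at 0.313, 0.384 and 0.291 in control libraries and 0.112, 0.137 and 0.122 after knockdown, and here the spread within groups was small. The exons of these genes differ in GC content (*EIF4EBP1* 62.9%, *EIF4EBP2* 44.7%, *EIF4E* 34.5%). The shares and ratios were not corrected for the GC trend of each library. Because *EIF4EBP2* was among the genes that chose the group, these shares are a description.

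The sum of the 4E-BPs relative to *EIF4E* did not separate the groups. The sum was 160.42, 258.38 and 251.88 TPM in the control libraries, against 124.7, 171.04 and 199.12 TPM after knockdown. Its ratio to *EIF4E* was 1.78, 3.71 and 4.01, against 1.85, 2.92 and 4.17. The ranges of the groups nearly coincided, and the libraries numbered 1, which stood apart in GC content, were the lowest in both. The log2 difference of the ratio was −0.08, and it was between −0.45 and 0.23 with each library left out in turn, so its direction rests on single libraries.

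**Figure D2:**
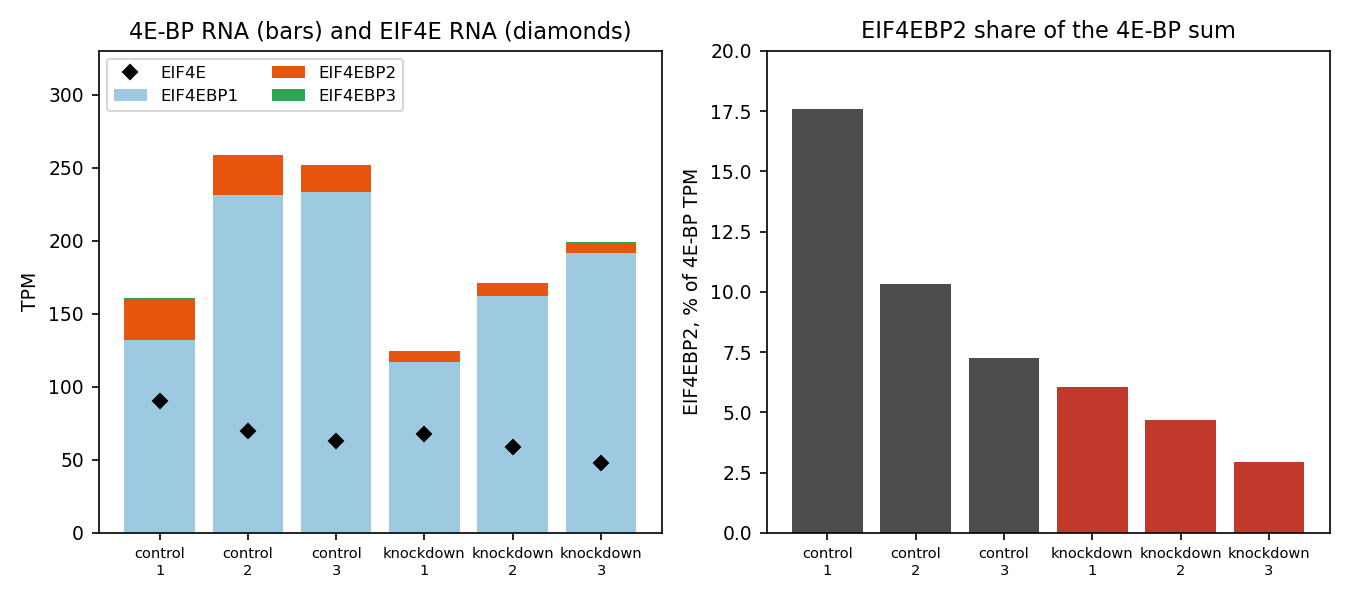
Left, TPM of *EIF4EBP1*, *EIF4EBP2* and *EIF4EBP3* stacked for each library, with *EIF4E* as diamonds. Right, *EIF4EBP2* as a percentage of that sum per library, control in grey (7.25% to 17.6%) and knockdown in red (2.93% to 6.05%).

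To place these genes in their pathway, 7 lists of other mTORC1 and translation genes were read from the same fit across all genes. Of 109 tested genes, 0 were called higher and 2 were called lower, and 24 had an unadjusted p under 0.05, beside 16.8% of all tested genes, against which such counts in the lists below can be read. Their median log2 fold change was −0.05, beside −0.04 over all tested genes. The groups did not overlap for 13 of them on the higher and 16 on the lower side, 26.6% of the 109, beside the 23.3% over all genes given above.

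The called genes were *PRR5L* and *GRB10*. *PRR5L*, which binds mTORC2 and not mTORC1, fell from 47.65, 47.57 and 55.01 TPM in the control libraries to 14.26, 26.14 and 16.81 TPM (log2 fold change −1.39, SE 0.24, adjusted p = 0.0422 from limma). *GRB10*, an adaptor that inhibits insulin receptor signalling and is itself an mTORC1 substrate, fell from 16.2, 14.84 and 13.64 TPM to 6.8, 6.72 and 6.63 TPM (log2 fold change −1.04, SE 0.18, adjusted p = 0.0432 from limma). Both sat close to the threshold. *PRR5L* passed in 9 and *GRB10* in 13 of 18 alternatives, and neither passed without control replicate 2 or without any one of the knockdown replicates, nor did *PRR5L* without control replicate 3. In these fits the adjusted p from limma was between 0.0713 and 0.180 for *PRR5L* and at least 0.172 for *GRB10*.

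Of the 10 complex subunits and assembly factors, 9 were tested, 1 of them (*PRR5L*) was called, and their median was −0.22. The highest was *RICTOR*, the mTORC2 scaffold, at 8.21 ± 4.28 TPM (SD, n = 3) in control and 9.55 ± 1.85 TPM (SD, n = 3) in knockdown cells (log2 fold change 0.30, adjusted p = 0.715 from limma), with a difference that turned to −0.10 without control replicate 3. *DEPTOR*, an inhibitory subunit, was below 1 TPM. Of 21 genes of the growth factor branch, 1 (*GRB10*) was called, the median was −0.09, and the highest was *RHEBL1*, a relative of the mTORC1 activator RHEB (log2 fold change 0.58, adjusted p = 0.343 from limma). Of 10 tested genes of the energy branch, 0 were called by limma, 1 had an unadjusted p under 0.05, and the median was 0.08. The ends of this list were *PRKAG1*, an AMPK subunit (log2 fold change 0.40, adjusted p = 0.301 from limma), and *STK11*, the AMPK kinase LKB1 (log2 fold change −0.55, adjusted p = 0.253 from limma).

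The amino acid branch spread in both directions with 0 of 32 genes called by limma and 10 with an unadjusted p under 0.05. Its median was 0.11, and the groups did not overlap for 7 genes on the higher and 4 on the lower side. Together these were 34.4% of the list, beside 23.3% of all tested genes (9.89% higher and 13.4% lower). At the high end was *BMT2*, which encodes the S-adenosylmethionine sensor SAMTOR, at 4.23 ± 1.83 TPM (SD, n = 3) in control and 10.6 ± 2.58 TPM (SD, n = 3) in knockdown cells (log2 fold change 1.19, adjusted p = 0.120 from limma). At the low end was *KPTN*, a subunit of the KICSTOR complex that holds GATOR1 at the lysosome, at 17.1 ± 4.79 TPM (SD, n = 3) in control and 8.70 ± 1.32 TPM (SD, n = 3) in knockdown cells (log2 fold change −0.88, adjusted p = 0.125 from limma).

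Downstream of mTORC1, none of the listed genes passed the threshold. Of 17 tested cap-binding and eIF4F factors, 0 were called by limma, 2 had an unadjusted p under 0.05, and the median was −0.08. The highest was *PDCD4*, an inhibitor of the helicase eIF4A (log2 fold change 0.68, adjusted p = 0.199 from limma), and the lowest was *EIF4G1*, the eIF4F scaffold (log2 fold change −0.42, adjusted p = 0.359 from limma). Of 9 genes of the S6 kinase branch, 0 were called by limma, 5 had an unadjusted p under 0.05, and the median was −0.09. *RPS6*, the ribosomal protein phosphorylated by S6 kinase, was at 1916.4, 1647.78 and 1517.35 TPM in the control libraries, against 2818.22, 2556.08 and 2352.04 TPM after knockdown. These groups did not overlap, yet the gene did not pass the threshold (log2 fold change 0.61, adjusted p = 0.0719 from limma). *POLDIP3*, the S6 kinase partner SKAR, was at the low end of this list (log2 fold change −0.58, adjusted p = 0.250 from limma). Of 11 autophagy and TFEB genes, 0 were called by limma, 2 had an unadjusted p under 0.05, and the median was −0.01, with *ATG14*, an autophagy subunit of the class III PI3-kinase (log2 fold change 0.67, adjusted p = 0.154 from limma), and *ULK2*, an autophagy-initiating kinase (log2 fold change −0.91, adjusted p = 0.194 from limma), at the ends.

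*DDIT4* and *SESN2* are both known targets of ATF4 and of p53, and the other targets of each were therefore read in the same way. Whether either factor had a part in the values of *DDIT4* and *SESN2* was not tested. Of 17 tested ATF4 target genes, 0 were called by limma, 2 had an unadjusted p under 0.05, and the median was −0.04. The ends were *TRIB3*, a pseudokinase (log2 fold change 0.61, adjusted p = 0.185 from limma), and *PHGDH*, the first enzyme of serine synthesis (log2 fold change −0.98, adjusted p = 0.0820 from limma). Of 18 p53 target genes, 3 were called higher and 0 lower by limma, beside 0.371% and 0.67% of all tested genes. Of the same 18, 17 had a log2 fold change above 0, beside 6489 of all 14020 tested genes. Their median was 0.58, beside −0.04 over all tested genes. The groups did not overlap for 9 of the 18 on the higher side, beside 9.89% of all tested genes.

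The p53 targets called higher were *CDKN1A*, *GDF15* and *BTG2*. *CDKN1A*, the cell cycle inhibitor p21, was at 73.92, 122.13 and 87.28 TPM in the control libraries, against 232.09, 282.8 and 402.34 TPM after knockdown (log2 fold change 1.68, SE 0.25, adjusted p = 0.0293 from limma). *GDF15*, a stress-induced cytokine, was at 41.9 ± 15.3 TPM (SD, n = 3) in control and 131 ± 24.5 TPM (SD, n = 3) in knockdown cells (log2 fold change 1.66, adjusted p = 0.0351 from limma). *BTG2*, an antiproliferative gene, was at 2.74 ± 1.54 TPM (SD, n = 3) in control and 11.2 ± 0.264 TPM (SD, n = 3) in knockdown cells (log2 fold change 1.79, adjusted p = 0.0432 from limma). The lowest of the list was *FAS*, a death receptor (log2 fold change −0.51, adjusted p = 0.320 from limma). The number of calls in this list depended on single libraries. It was 0 without control replicate 2 or without any one of the knockdown replicates, 1 without control replicate 3 and 6 without control replicate 1. Calls over all tested genes were 146 with all libraries, 12 without control replicate 2 and 15 to 18 without a knockdown replicate. Over the 18 alternatives the log2 fold change was 1.35 to 1.88 for *CDKN1A*, 1.23 to 1.93 for *GDF15* and 1.08 to 2.14 for *BTG2*.

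**Figure D3:**
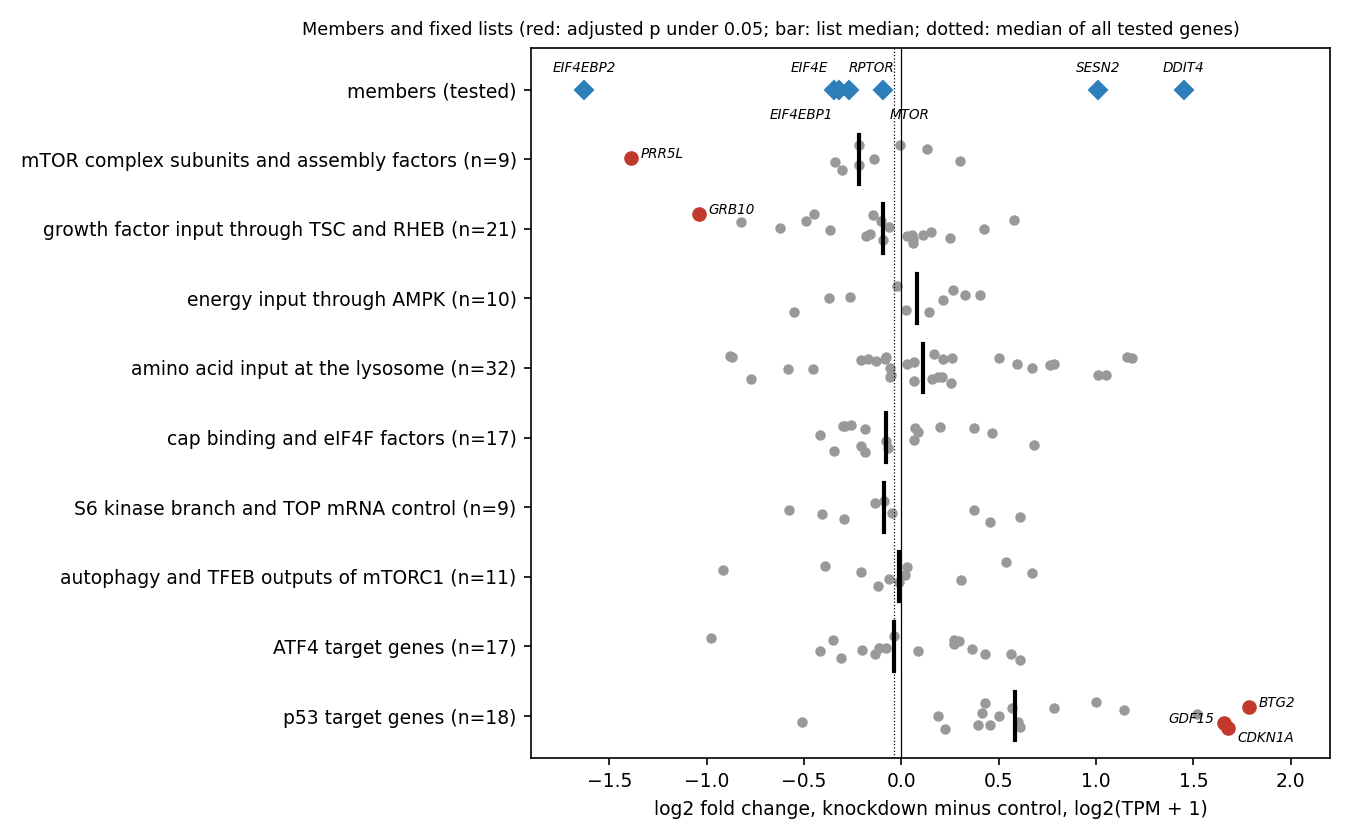
Log2 fold change, knockdown minus control, of the 7 tested members (blue diamonds) and of the tested genes of the 9 lists (dots, with random vertical scatter), with genes at an adjusted p under 0.05 in red, the list median as a black bar and the median of all tested genes as a dotted line. The medians of 8 lists lie between −0.22 and 0.11, and that of the p53 targets lies at 0.58.

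Genes with a profile like that of *DDIT4* or *EIF4EBP2* were found by the Euclidean distance between mean-centred log2(TPM + 1) values over the 6 libraries. The 5 nearest to *DDIT4* were *SLC37A2* (distance 0.357, Pearson's r 0.983), *APLN* (0.378 and 0.981), *ORAI3* (0.455 and 0.974), *LINC01705* (0.469 and 0.971) and *SEMA7A* (0.474 and 0.971). *SLC37A2*, a sugar phosphate transporter, was at 2.13, 3.89 and 1.07 TPM in the control libraries, against 5.69, 7.79 and 8.43 TPM after knockdown. *APLN*, the ligand of the apelin receptor, was at 2.89, 4.4 and 2.67 TPM in the control libraries, against 8.45, 11.59 and 11.44 TPM after knockdown. Like *DDIT4*, both were highest in replicate 2 and lowest in replicate 3 among control libraries.

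The 5 nearest to *EIF4EBP2* were *GPD2* (distance 0.256, Pearson's r 0.993), *CRISPLD2* (0.262 and 0.992), *DYNLT2B* (0.348 and 0.989), *C2orf74* (0.355 and 0.988) and *PADI2* (0.390 and 0.992). *GPD2*, the mitochondrial glycerol-3-phosphate dehydrogenase, was at 32.44, 25.4 and 17.54 TPM in the control libraries, against 8.38, 9.16 and 6.1 TPM after knockdown. Its levels were thus close to those of *EIF4EBP2* in each library. The 10 genes were selected for these profiles, so the correlations over 6 libraries that share depth and composition are a description. The 7-mer GAGTGAA was in the 3′UTR of 2 of the 5 genes nearest to *EIF4EBP2* and of 0 of the 4 nearest to *DDIT4* that have an annotated 3′UTR. Of all tested genes with an annotated 3′UTR, 12.5% held it. Both the 7-mer and these genes were picked on these same libraries, so nothing is read from these counts.

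**Figure D4:**
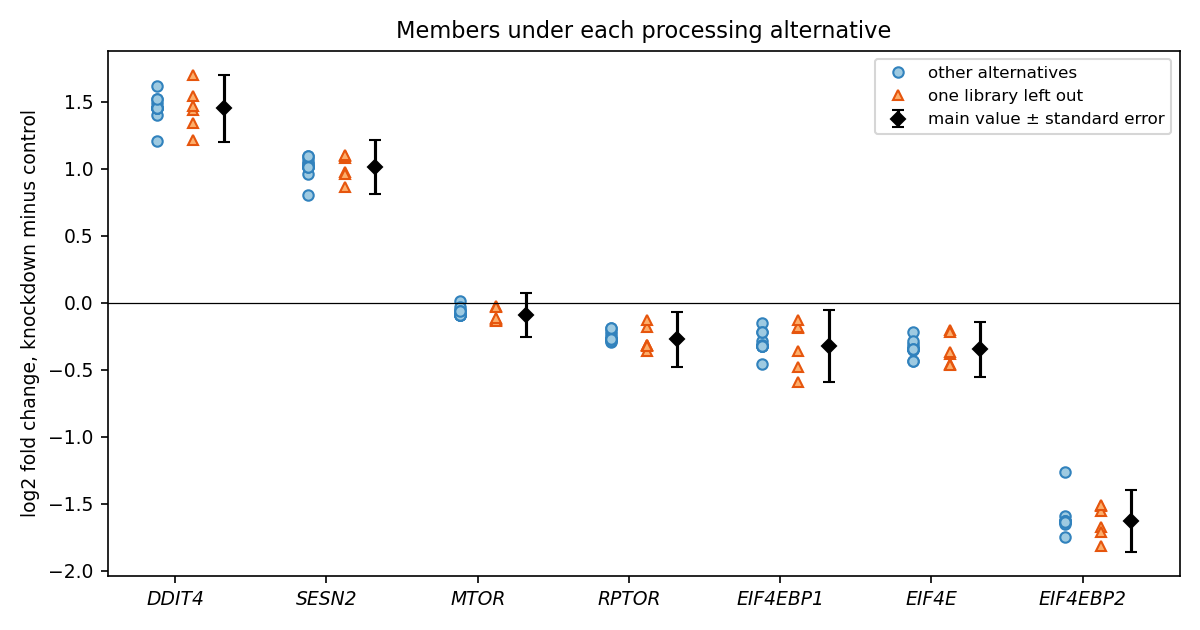
Log2 fold change of the 7 tested members under each processing alternative (blue circles), with one library left out (orange triangles), and as reported with its standard error (black diamonds). *DDIT4* stayed between 1.21 and 1.70, *SESN2* between 0.81 and 1.10, and *EIF4EBP2* between −1.82 and −1.26, whereas *MTOR* ranged from −0.14 to 0.01.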

How the data were processed

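RNA-seq was performed on poly-A selected RNA of 6 SK-Hep1 libraries, 3 control and 3 knockdown, grouped by the sample labels. The authors deposited gene-level TPM values, 1 table per library. The methods of the study name fastp, STAR, samtools and RSEM with another GENCODE release, whereas the processing notes of the submitters name fastp, HISAT2 2.0.5 and hg38, and all 62700 versioned gene identifiers were those of GENCODE 44, which was used here. TPM carry no read number, so depth is unknown, no counting interval is given, and precision rests on 3 libraries per group. In each library 20127 to 21675 genes were above 0 TPM.

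Values were analysed as log2(TPM + 1) for genes whose mean over the 6 libraries reached 1 TPM, using limma 3.58.1 (lmFit, eBayes with trend, two-sided) in R 4.3.3 with Benjamini-Hochberg adjustment over all 14020 tested genes, at a threshold of 0.05. The p-values set the difference between the groups against the spread between these libraries, which may be technical. The fit was tested on simulated data. Genes named were the 9 members, *RAB30-DT*, the called genes (up to 6) and the highest and lowest tested gene of each list, and the 5 nearest profiles. The members and lists were chosen with earlier results of these data known. Sequences were read from RefSeq promoters (GRCh38.p14, 8 of 9 members matched) and from GENCODE 44 3′UTRs on hg38. Alternatives were pseudocounts of 0.1 and 5, filters, scalings, arrayWeights, eBayes without trend, removal of the GC trend (loess, span 0.3), a replicate block, and each library left out in turn with the filter recomputed.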

Additional observations from a re-analysis of the deposited data

How the results depend on the processing

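The 90 alternative values of *SESN2*, *MTOR*, *RPTOR*, *EIF4E* and *EIF4EBP1* all stayed within the spread between replicates, and *MTOR* was the only tested member whose sign changed (0.01 after quantile normalization). The log2 fold change of *EIF4EBP2* was −1.26 with a pseudocount of 5, the only alternative that moved it by more than that spread. Among the alternative values of the other named genes, 436 kept their direction and their side of the threshold, 76 lost and 38 gained a call, and 1 reversed, *RICTOR*, which was between −0.10 (without control replicate 3) and 0.63 (without control replicate 1).

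The number of calls depended on the processing. Over all tested genes there were 146 calls, 52 higher and 94 lower, against 13 with no filter on low values, 3218 with arrayWeights, which weighted control replicate 2 by 3.00 and knockdown replicate 2 by 4.39 and the other libraries by at most 0.948, 1232 with the GC trend removed, and between 12 (without control replicate 2) and 489 (without control replicate 1) with one library left out. Median-of-ratios scaling gave 68 higher and 68 lower. Over the 9 lists, 3 genes were called higher and 2 lower, against 0 and 0 with no filter, 4 and 1 with median-of-ratios scaling or quantile normalization, 28 and 17 with arrayWeights, 0 and 1 without the eBayes trend, 22 and 6 with the GC trend removed, and 0 to 10 and 0 to 4 with one library left out. The p53 targets called higher were 3, against 0 with no filter or without the eBayes trend, 10 with arrayWeights, 12 with the GC trend removed, and 0 to 6 with one library left out. Among the members, *DDIT4* was called in 11 and *EIF4EBP2* in 13 of 18 alternatives, and *SESN2*, which was not called in the reported fit, in 4 of 18 (arrayWeights, the GC trend removed, the replicate block, and the block with the GC trend removed). The cause of these shifts was not tested. The group was chosen by values of this same contrast, so nothing is read from the calls of its members.

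Replicate numbers are shared between groups, but nothing in the labels pairs the libraries. The deviations of same-numbered libraries correlated at 0.41, 0.0359 and 0.279. The libraries numbered 1 correlated best with each other across the groups, as did those numbered 3. Both libraries numbered 2 correlated best with replicate 3 of the other group. Same-numbered libraries thus matched for numbers 1 and 3 and not for number 2, and the reason was not tested. With a replicate block, 861 genes were called, 11 list genes were higher and 6 lower, and 6 p53 targets were higher. With the block and the GC trend removed these were 1056, 18, 7 and 10. With 1 library of each number in each group, the block cannot change a fold change, so the log2 fold changes of *DDIT4* (1.45) and *EIF4EBP2* (−1.63) were fixed by the design.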

Other observations

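The promoters of the other members were searched for the same letters. With both strands read, the 250 bases before the RefSeq start held 5 matches to the hypoxia response element cores ACGTG or GCGTG in *EIF4E*, whose RNA was at 74.1 ± 14.2 TPM (SD, n = 3) in control and 57.9 ± 9.81 TPM (SD, n = 3) in knockdown cells. The same window held 3 matches in *EIF4EBP3*, 2 in *RPTOR*, 1 in *EIF4EBP2*, 1 in *MTOR* and 0 in *DDIT4L*. A palindromic CACGTG counts on both strands, so 4 of the matches in *EIF4E* are 2 such sites. Among list genes, *PRR5L*, which fell, held 2 copies of the 3′UTR 7-mer GAGTGAA described for *EIF4EBP2*, and *GRB10*, which also fell, held 1. *BTG2*, which rose, held 1 copy too, and *CDKN1A* and *GDF15*, which also rose, held 0. *RICTOR*, *PDCD4*, *POLDIP3*, *ATG14* and *ULK2*, which did not pass the threshold, held 1 copy each. At least 1 copy was in 12.5% of all tested genes with an annotated 3′UTR, and 2 or more were in 2.03%. The 3′UTRs of *PRR5L* and *GRB10* are 2468 and 2884 bases long, and no share was computed for genes of that length. The 7-mer had been picked on these libraries, and no test was made of these counts.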
